A study of Thermothelomyces thermophilus ATCC 42464 with 8 samples.

Results

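Mitochondrial ribosomal protein genes of the thermophilic fungus Myceliophthora thermophila were followed in 8 RNA-seq libraries from 4 strains given d-xylose. A gene was taken as a member when the part of its description before the first semicolon spoke of a mitochondrial ribosome, or of a ribosomal subunit together with mitochondria. This rule chose 61 of the 9110 genes in the count table and used no expression value. By their descriptions 34 members belong to the large subunit and 23 to the small subunit, and 4 are other proteins that work with the mitochondrial ribosome. Each description is that of the best match in Saccharomyces cerevisiae, so every role given here is one known from yeast. All 61 members passed the filter on low counts, with between 527 and 21601 counts in a library.

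Mitochondria keep ribosomes of their own, related to those of bacteria, which translate the few proteins encoded in mitochondrial DNA. Most of those proteins are core parts of the respiratory chain and of the ATP synthase. The small subunit reads the messenger RNA and the large subunit joins the amino acids. Nearly all protein parts of the mitochondrial ribosome are encoded in the nucleus, made by cytosolic ribosomes and imported. A cell therefore makes mitochondrial ribosomes from genes that are separate from those of the cytosolic ribosome, the machine that makes all other proteins.

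The study asked how M. thermophila responds when its own route for d-xylose is cut and the Weimberg pathway, a bacterial route from d-xylose to 2-ketoglutarate, is put in. JG207, the starting strain, overexpresses Aomae, a malate transporter gene, and Aopyc, a pyruvate carboxylase gene, and the other strains were built on it and share both. DF1102 was made from JG207 by deleting Mtxyl1, which encodes d-xylose reductase. DF1406 lacks Mtxyl1 and carries Mtxyd1, xylD, xylX and xylA, and DF1501 lacks Mtxyl1 and carries Mtxyd1, xylD, BxxylX and KsaD. Strong constitutive promoters drove Mtxyd1 and xylD in both strains, the pathway genes were inserted at random, and each genotype is represented by 1 strain. Mycelium was grown for 24 h in medium with 2% glucose at 45 °C and 150 rpm, washed, and kept for 4 h in medium with 1% d-xylose. Each strain gave 2 libraries, and the sources used here do not say whether these came from separate cultures, so p-values measure the spread between libraries, which may be technical. In bulk RNA, fewer cells of a kind and less RNA in each cell cannot be told apart.

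Libraries held between 20727346 and 21408353 counts in genes. Mtxyl1 (MYCTH_43671) stood at 1676 and 1773 RPKM, which is counts scaled by gene length and library total, in JG207, at 412 and 383 for DF1102, at 102 and 109 for DF1406 and at 252 and 228 for DF1501. Mtxyd1 (MYCTH_112471) stood at 244 and 216 RPKM for JG207, 1137 and 1194 for DF1102, 4071 and 3639 for DF1406, and 1947 and 1982 for DF1501. Mtxyl1 was thus lower in every library of the deletion strains than in JG207, though reads were still counted in it, and Mtxyd1 was highest in the strains that carry added copies. On principal components of all 8335 tested genes, component 1 held 69.2% of the variance, and the libraries of DF1501 lay apart on it, at 4.76 and -15.7. Medians of the members and of the cytosolic ribosome genes that rest on DF1501 are also given with a library of it left out. Genes described by spores or sporulation, the other cell state that mycelium could hold, took between 0.315% and 0.439% of the counts of a library, and 18 of 45 tested were higher and 14 lower in DF1102 against JG207, where 27.8% of all genes were higher and 29.5% lower.

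Messages of the mitochondrial ribosome were most abundant in JG207 and least abundant in DF1102. The 61 members together took 0.950% and 0.966% of the counts in the JG207 libraries. They took 0.718% and 0.714% for DF1102, 0.786% and 0.826% for DF1406, and 0.761% and 0.806% for DF1501. The libraries of JG207 thus lay above all others, those of DF1102 below all others, and the ranges of DF1406 and DF1501 overlapped. On the per-length scale the median member stood at 120 and 128 RPKM for JG207, 89.9 and 89.2 for DF1102, 103 and 111 for DF1406, and 94.6 and 103 for DF1501. By the means of each strain, 51 of 61 members were highest in JG207, where 37.3% of all tested genes were. In DF1102 40 members were lowest, where 35.1% of all tested genes were, and these 40 were all among the 51. That order of the highest and the lowest strain was seen in 65.6% of members and in 25.4% of all tested genes. A further 17 members were lowest in DF1501, as were 1080 of the 8335 tested genes.

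**Figure D1:**
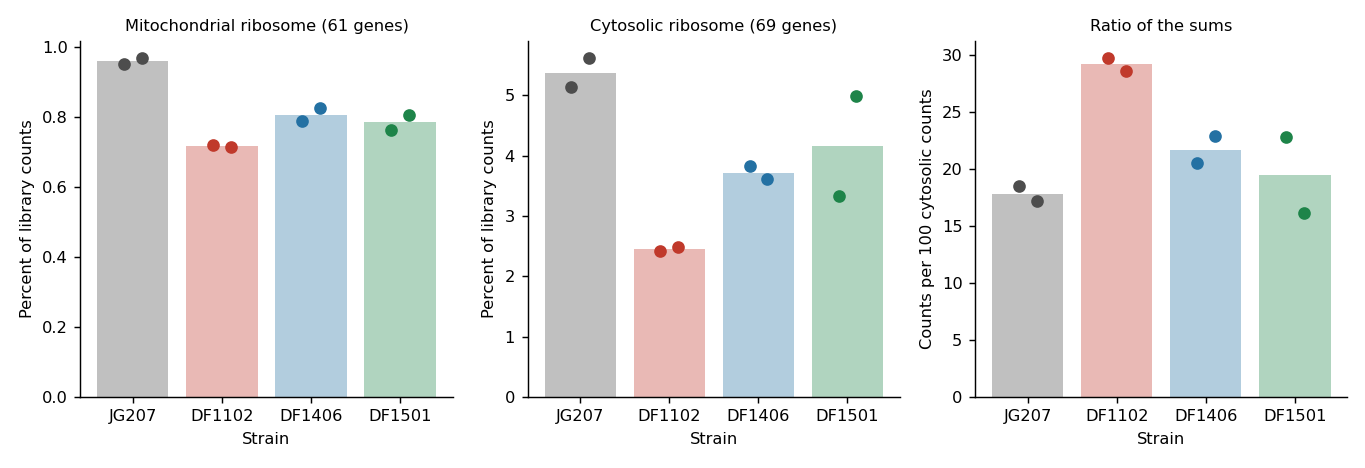
Percent of each library's counts in the genes of the mitochondrial ribosome (left) and of the cytosolic ribosome (middle), and member counts per 100 cytosolic counts (right), by strain; points are libraries and bars are the means of the 2 libraries. Members run from 0.714% for DF1102 to 0.966% for JG207, the cytosolic genes from 2.41% to 5.62%, and the ratio is highest in DF1102 at 29.7 and 28.6.

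DF1102 was compared with JG207 to see what the loss of Mtxyl1 goes with. Of 61 members, 41 were lower in DF1102, 3 were higher and 17 did not pass the test (edgeR quasi-likelihood test, Benjamini-Hochberg adjusted p at most 0.05 over 8335 genes, no fold minimum). Of all tested genes, 29.5% were lower and 27.8% were higher in this comparison. A lower call with no fold minimum was thus more frequent among members than among genes at large. The median standard error was 0.11 for members and 0.15 for all genes, so small shifts were called more readily among members. With a fold of at least 2 as well, 4 of 61 members were lower, where 11.1% of all genes were. The median log2 fold change of the members was -0.49, a ratio of 0.712, and single members ran from -1.53 to 0.98. In 51 members both DF1102 libraries lay below both JG207 libraries, where 40.7% of all genes did so, and in 6 members both lay above, where 40% of all genes did. Large and small subunits stood alike in this count. The large subunit had 23 of 34 members lower and 1 higher, with a median of -0.59. The small subunit had 16 of 23 lower and the other 7 did not pass the test, with a median of -0.51.

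Among large subunit members the lowest fold changes were those of MYCTH_2298482, MYCTH_2296621 and MYCTH_2311726. MYCTH_2298482 stood at 51.5 and 52.0 RPKM for JG207, 17.4 and 18.6 for DF1102, 30.6 and 33.6 for DF1406, and 32.7 and 43.8 for DF1501. All libraries of DF1406 and DF1501 lay above those of DF1102 and below those of JG207. Its log2 fold change in DF1102 was -1.53 (standard error 0.13, edgeR adjusted p = 3.5e-05). MYCTH_2296621 matches the yeast relative of bacterial L2, a protein near the centre where peptide bonds form, and stood at 97.0 and 102 RPKM for JG207, 39.3 and 37.03 for DF1102, 67.5 and 67.9 for DF1406, and 53.98 and 74.3 for DF1501. Here too DF1406 and DF1501 lay between DF1102 and JG207, with -1.39 on the log2 scale in DF1102 (standard error 0.13, edgeR adjusted p = 4.1e-05). MYCTH_2311726 fell from 116.8 and 136 RPKM for JG207 to 58.3 and 52.9 for DF1102, a change of -1.19 on the log2 scale with standard error 0.10 (edgeR adjusted p = 3.1e-05). In DF1406 it stood at 83.5 and 83.7 RPKM and in DF1501 at 77.3 and 89.8, again between the other strains. MYCTH_2090930, whose yeast match suppresses mutations in the leader of a cytochrome oxidase subunit when overproduced, stood at 71.9 and 81.2 RPKM for JG207 and at 33.1 and 38.9 for DF1102 (log2 fold change -1.09, standard error 0.15, edgeR adjusted p = 0.00028). These 4 members were the only ones whose fold reached 2 in either direction in DF1102 against JG207.

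Not every large subunit gene was lower in DF1102. MYCTH_88392 had the highest mean RPKM of all members and stood at 470 and 473 RPKM for JG207, 651 and 677 for DF1102, 556 and 655 for DF1406, and 529 and 443 for DF1501. Its 2 DF1102 libraries lay above those of JG207, a change of 0.49 on the log2 scale with standard error 0.16 (edgeR adjusted p = 0.024). That call was lost without any 1 of these 4 libraries (edgeR adjusted p from 0.051 to 0.111). The sum over members in DF1102 therefore includes an abundant gene that stood higher while most others stood lower. MYCTH_2296263 stood at 105 and 118 RPKM for JG207 and 129 and 138 for DF1102, which did not pass the test (log2 fold change 0.26, edgeR adjusted p = 0.124). MYCTH_2059227, the match of bacterial L4 and by its description essential in yeast, stood at 103 and 102 RPKM for JG207 and 111 and 119 for DF1102 (log2 fold change 0.16, edgeR adjusted p = 0.221). Its neighbour on the chromosome, MYCTH_2090388, is also a member, and stood at 149 and 150 RPKM against 120 and 125 (log2 fold change -0.29, edgeR adjusted p = 0.051). These are the only 2 members that lie next to each other in the RefSeq annotation, assembly ASM22609v1, and both missed the threshold.

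Small subunit members were lower or did not pass the test in DF1102. MYCTH_2307426 stood at 67.4 and 76.8 RPKM for JG207, 39.4 and 34.8 for DF1102, 44.7 and 50.6 for DF1406, and 44.1 and 55.5 for DF1501. Its log2 fold change in DF1102 was -0.96 (standard error 0.12, edgeR adjusted p = 0.00021), with no overlap of the libraries. MYCTH_2312323 and MYCTH_2082154, the small subunit members with the highest mean RPKM, changed less. MYCTH_2312323 stood at 453 and 421 RPKM for JG207 against 311 and 355 for DF1102 (log2 fold change -0.40, edgeR adjusted p = 0.024). MYCTH_2082154, with twin pairs of cysteines in its yeast match, stood at 323 and 324 against 242 and 260 (log2 fold change -0.37, edgeR adjusted p = 0.017). Both calls were lost without JG207 replicate 1 (edgeR adjusted p = 0.165 and 0.099) and without DF1102 replicate 1 (edgeR adjusted p = 0.163 and 0.113). MYCTH_2297332, by its description also a predicted methyltransferase and among the 3 members with the lowest mean RPKM, stood at 35.7 and 39.5 against 34.5 and 29.9 and did not pass the test (edgeR adjusted p = 0.129). Chosen after its values were seen, MYCTH_2294218 is the small subunit member whose yeast match is essential for viability, unlike most mitochondrial ribosomal proteins. It stood at 92.8 and 97.5 RPKM for JG207, 51.8 and 52.0 for DF1102, 82.1 and 83.0 for DF1406, and 64.5 and 77.0 for DF1501, which is lower in DF1102 than in any other library (log2 fold change against JG207 -0.88, standard error 0.10, edgeR adjusted p = 0.00011).

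A group of 7 subunit members, also chosen after the values were seen, have descriptions that name a bacterial ribosomal protein, and so are parts that bacterial ribosomes also have. The group follows the wording of the descriptions, so other members may have bacterial counterparts that are not named. In DF1102 against JG207 the group had 3 of 7 lower, or 42.9%, where 29.5% of all genes were lower, with a median log2 fold change of -0.16, against -0.49 for all members. The lower ones were MYCTH_2296621 above, MYCTH_2299217, the relative of bacterial L29 at the exit of the peptide tunnel (log2 fold change -0.69, edgeR adjusted p = 0.00054), and MYCTH_2058620, related to bacterial S13 (log2 fold change -0.44, edgeR adjusted p = 0.0064). The other 4 did not pass the test. MYCTH_2306960, related to S7, which helps to fold the small subunit RNA, stood at 140 and 138 RPKM for JG207 and 124 and 127 for DF1102 (edgeR adjusted p = 0.239). MYCTH_2300408, related to S18, stood at 111 and 106 against 104 and 99.3, and MYCTH_2311295, related to S19, at 119 and 146 against 134 and 125. For the last pair of genes and for MYCTH_2059227 the log2 fold changes lay between -0.10 and 0.16. Whether the group differs from the other members was not tested.

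**Figure D2:**
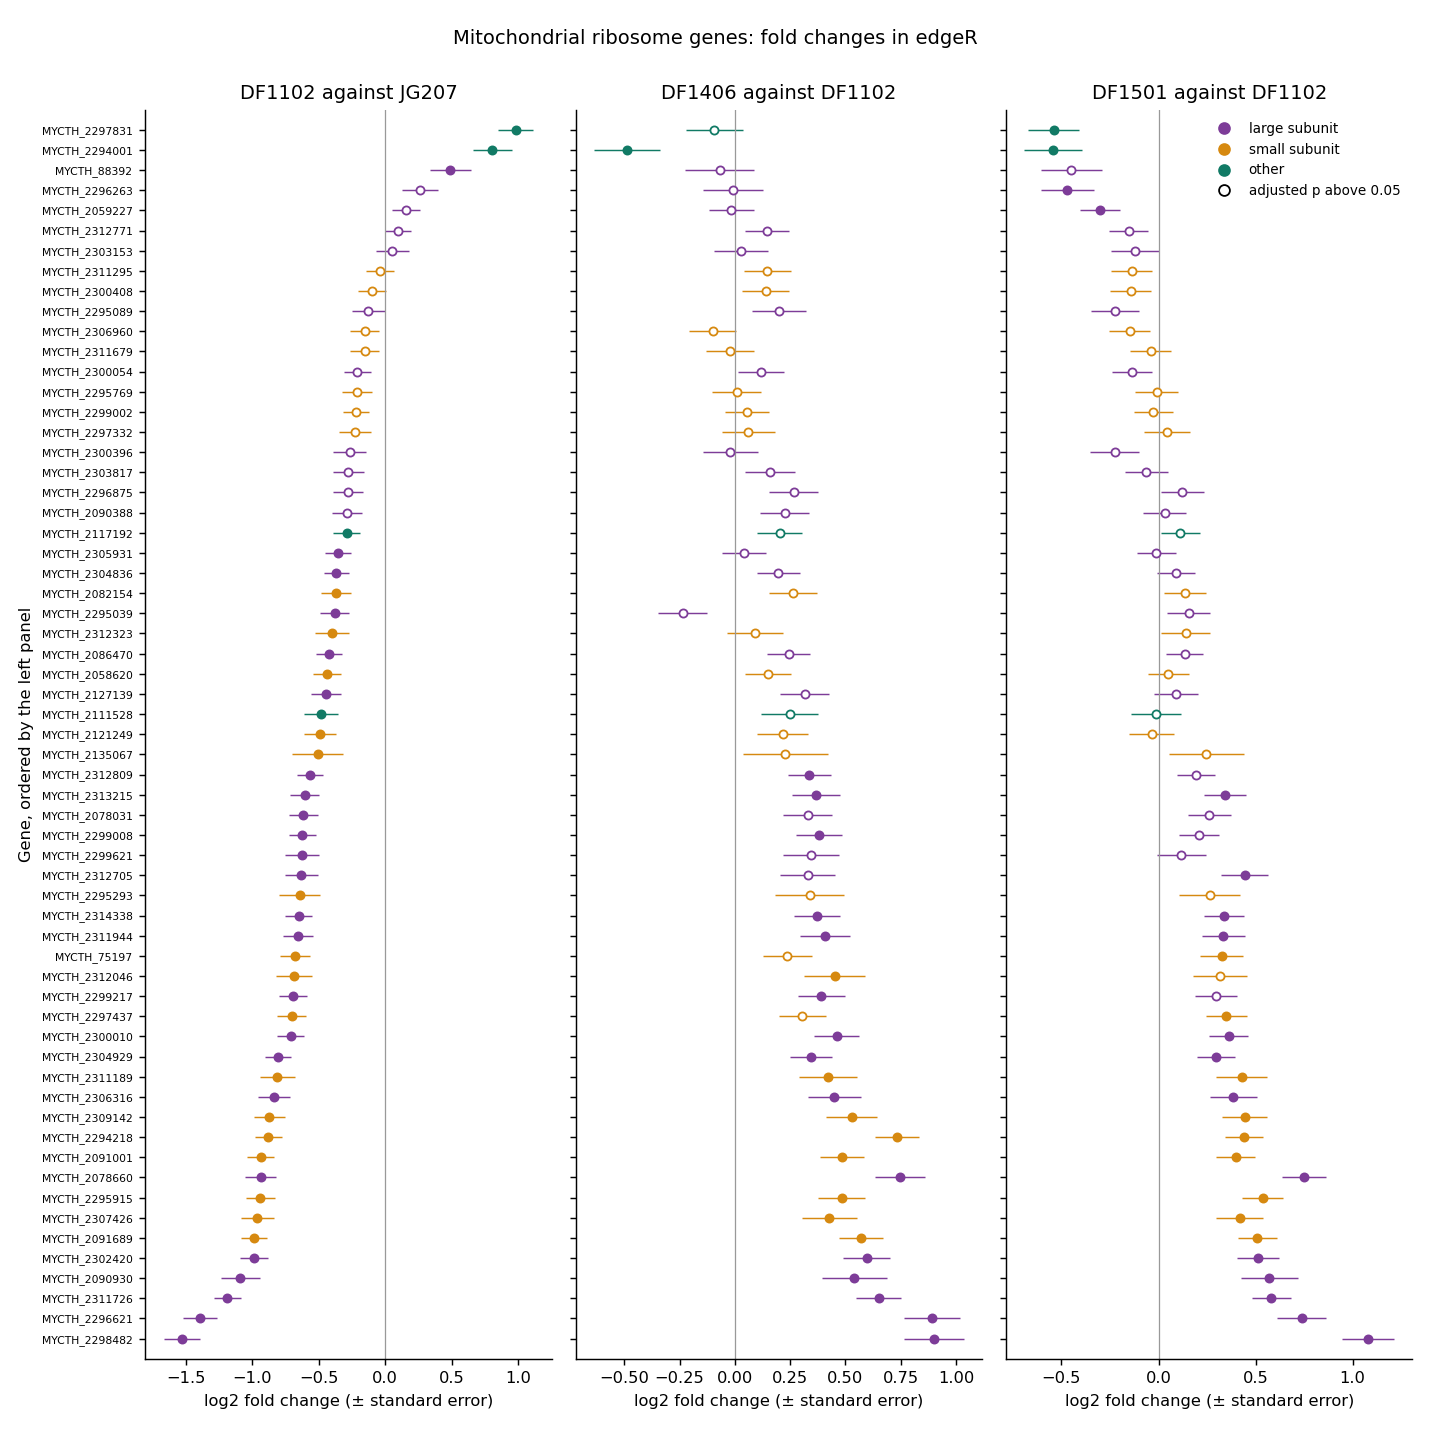
The edgeR log2 fold change of each of the 61 members (points, with bars of 1 standard error) in DF1102 against JG207 and in DF1406 and DF1501 against DF1102, ordered by the left panel and coloured by role; filled points have an adjusted p of at most 0.05. In the left panel 41 members are called lower and 3 higher, and in the other panels 23 and 22 are called higher.

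The 4 members that are not structural subunits did not move together. MYCTH_2297831 encodes a putative GTPase on the inner membrane that in yeast likely acts in assembly of the large subunit and is needed for respiration. It stood at 25.8 and 27.3 RPKM for JG207, 52.9 and 52.1 for DF1102, 46.8 and 47.3 for DF1406, and 39.8 and 32.2 for DF1501. All libraries of the derived strains lay above JG207, with log2 fold changes of 0.98 for DF1102 (standard error 0.13, edgeR adjusted p = 0.00027), 0.89 for DF1406 (standard error 0.13, edgeR adjusted p = 0.0012) and 0.44 for DF1501 (standard error 0.13, edgeR adjusted p = 0.043). The call in DF1501 was lost with the replicate number as a block (edgeR adjusted p = 0.052) and with only the 4 libraries compared (edgeR adjusted p = 0.127), and without any 1 library other than DF1501 replicate 2 (edgeR adjusted p from 0.062 to 0.224). MYCTH_2294001, an inner membrane protein that binds mitochondrial ribosomes and whose human relative is LETM1, stood at 13.0 and 16.1 RPKM for JG207, 22.1 and 28.6 for DF1102, 16.7 and 17.9 for DF1406, and 17.7 and 17.2 for DF1501. It was higher in DF1102 than in every other strain, by 0.80 on the log2 scale against JG207 (standard error 0.15, edgeR adjusted p = 0.0016).

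The remaining 2 were lower in DF1102. MYCTH_2111528, a matrix GTPase related to bacterial LepA that in yeast supports translation under heat and nutrient stress, had the lowest mean RPKM of all members. It stood at 18.8 and 22.7 RPKM for JG207, 16.3 and 13.5 for DF1102, 16.3 and 17.5 for DF1406, and 15.0 and 14.6 for DF1501. Its log2 fold changes were -0.48 for DF1102 (edgeR adjusted p = 0.010) and -0.49 for DF1501 (edgeR adjusted p = 0.026), the last lost with only the 4 libraries compared (edgeR adjusted p = 0.066). The call in DF1102 was lost without JG207 replicate 2 (edgeR adjusted p = 0.065) or DF1102 replicate 2 (edgeR adjusted p = 0.084), and that in DF1501 without any 1 of the JG207 and DF1501 libraries (edgeR adjusted p from 0.051 to 0.135). MYCTH_2117192 encodes the insertase that places new proteins in the inner membrane, and stood at 94.9 and 104 RPKM for JG207 against 80.3 and 83.1 for DF1102. Its log2 fold change of -0.29 passed in the edgeR fit of all libraries (adjusted p = 0.035) but not in DESeq2 (adjusted p = 0.053), limma on log2(RPKM + 1) (adjusted p = 0.066), edgeR with library size alone (adjusted p = 0.069) or edgeR with only the 4 libraries compared (adjusted p = 0.052), nor in edgeR without any 1 of the JG207, DF1102 and DF1406 libraries (adjusted p from 0.065 to 0.159).

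**Figure D3:**
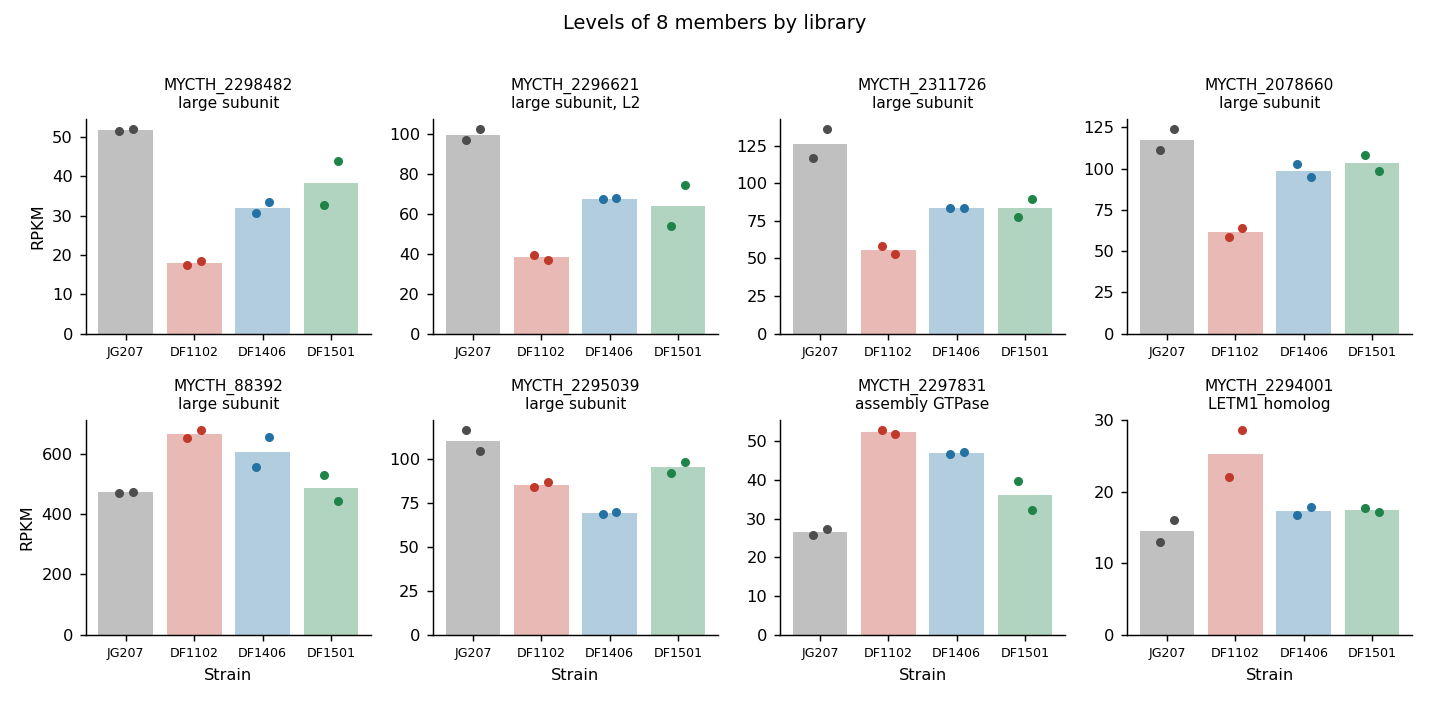
RPKM of 8 members by strain, each axis from 0; points are libraries and bars are the means of the 2 libraries. In the upper row all 4 large subunit genes are lowest in DF1102, as with MYCTH_2298482 at 17.4 and 18.6, and in the lower row MYCTH_88392, MYCTH_2297831 and MYCTH_2294001 are higher in DF1102 than in JG207, while MYCTH_2295039 is lowest in DF1406 at 68.8 and 70.3.

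DF1406 and DF1501 were compared with DF1102, which like them carries the Mtxyl1 deletion, to see what goes with the Weimberg pathway genes. Counts in Mtxyl1 were not equal among these strains, with log2 fold changes against DF1102 of -1.85 for DF1406 (edgeR adjusted p = 0.00057) and -0.73 for DF1501 (edgeR adjusted p = 0.0051). Both comparisons use the same DF1102 libraries. In DF1406, 23 members were higher than in DF1102 and 1 was lower, where 11.9% of all genes were higher and 9.9% lower. The median log2 fold change of the members was 0.26, and in 44 of them both DF1406 libraries lay above both DF1102 libraries, where 33.6% of all genes did so. The large subunit had 15 of 34 higher and the small subunit 8 of 23, and the lower member was 1 of the other proteins. Fewer members of either subunit were higher without any 1 of the DF1102 and DF1406 libraries, and calls over all genes fell too. The median stayed between 0.23 and 0.32 whichever library was left out. With library size alone and in limma on log2(RPKM + 1) the count of 23 became 11, at a median of 0.20. It was made up of 6 large and 5 small subunit members. In those fits 709 and 684 of all genes were higher, against 990 where 23 members were. In DF1501, 22 members were higher than in DF1102 and 4 lower, where 18.2% of all genes were higher and 16.3% lower. The median was 0.14. Here 13 large subunit and 9 small subunit members were higher, and the lower ones were 2 large subunit genes and 2 of the 4 other proteins. Fewer of either subunit were higher without either DF1102 library or DF1501 replicate 2, and calls over all genes fell too. The median stayed between 0.11 and 0.20 whichever library was left out. With only the 4 libraries compared the count of 22 became 14. That fit called 1262 of all genes higher, against 1513 where 22 members were.

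The highest fold changes against DF1102 were those of large subunit genes. MYCTH_2298482 was higher by 0.90 on the log2 scale in DF1406 (standard error 0.13, edgeR adjusted p = 0.0045) and by 1.08 for DF1501 (standard error 0.13, edgeR adjusted p = 0.00095). MYCTH_2296621 was higher by 0.89 (edgeR adjusted p = 0.0037) and by 0.74 (edgeR adjusted p = 0.0033), and MYCTH_2078660, another large subunit gene, by 0.75 in both (edgeR adjusted p = 0.0049 and 0.0020). In DF1406 the calls of MYCTH_2298482 and MYCTH_2078660 were lost without DF1102 replicate 1 (edgeR adjusted p = 0.061 for both). MYCTH_2078660 stood at 111 and 124 RPKM for JG207, 58.7 and 64.2 for DF1102, 103 and 94.7 for DF1406, and 108 and 98.6 for DF1501. Against JG207 it did not pass the test in either strain (log2 fold change -0.19 in both, edgeR adjusted p = 0.210 and 0.259).

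Few members were lower in a Weimberg strain than in DF1102. MYCTH_2294001 was lower in DF1406 (log2 fold change -0.49, edgeR adjusted p = 0.045) and in DF1501 (log2 fold change -0.54, edgeR adjusted p = 0.021). MYCTH_2297831 was lower in DF1501 (log2 fold change -0.54, edgeR adjusted p = 0.013). MYCTH_2296263 stood at 104 and 89.3 RPKM for DF1501 against 129 and 138 for DF1102 (log2 fold change -0.47, edgeR adjusted p = 0.026). MYCTH_2059227 was the fourth, at 90.9 and 95.7 RPKM against 111 and 119 (log2 fold change -0.30, edgeR adjusted p = 0.049). All 4 had a log2 fold change above 0 for DF1102 against JG207. The same DF1102 libraries enter both comparisons and push the signs apart, so no conclusion is drawn from this. Few or none of the lower calls in DF1501 held without a DF1102 library or DF1501 replicate 2, and calls over all genes fell too. The call of MYCTH_2294001 in DF1406 was lost without any 1 of the JG207, DF1102 and DF1406 libraries (edgeR adjusted p from 0.052 to 0.278).

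Against JG207 the Weimberg strains were lower in fewer members than DF1102 was. DF1406 had 18 members lower and 1 higher, where 19.7% of all genes were lower and 17.2% higher, with a median log2 fold change of -0.25. Fewer members were lower without any 1 of the JG207 and DF1406 libraries, and calls over all genes fell too. The median stayed between -0.26 and -0.17 whichever library was left out. DF1501 had 25 lower and 1 higher, where 9.56% of all genes were lower and 11.7% higher, with a median of -0.35. Fewer were lower without either JG207 library, either DF1406 library or DF1501 replicate 1, and calls over all genes fell too. The median stayed between -0.36 and -0.28 whichever library was left out. With only the 4 libraries of that comparison in the fit the count of 25 became 3. That fit called 765 of all genes, 492 of them higher. With library size alone and in limma on log2(RPKM + 1) the count was 16. Those fits called 1478 and 1395 of all genes, 911 and 846 of them higher. Where 25 members were lower, 1773 of all genes were called, 976 of them higher. The 3 comparisons against JG207 share its libraries, and counts of calls past a threshold are no test of a difference between strains. In DF1501, both libraries lay below both JG207 libraries in 55 of 61 members, where 32.1% of all genes did so, and in DF1406 in 46, where 38.9% did. The single higher member was MYCTH_2297831 in each.

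MYCTH_2295039, a large subunit gene, was lowest in DF1406. It stood at 116.7 and 105 RPKM for JG207, 84.3 and 86.9 for DF1102, 68.8 and 70.3 for DF1406, and 92.6 and 98.8 for DF1501. Against JG207 the log2 fold change was -0.62 for DF1406 (standard error 0.11, edgeR adjusted p = 0.0031), and -0.22 for DF1501, which did not pass (edgeR adjusted p = 0.175). Between the Weimberg strains it had the lowest adjusted p of all members and still missed the threshold (log2 fold change 0.39, edgeR adjusted p = 0.077). MYCTH_2307426, MYCTH_2296621 and MYCTH_2311726 had the lowest fold changes in DF1501 against JG207, at -0.55 (edgeR adjusted p = 0.015), -0.65 (edgeR adjusted p = 0.0084) and -0.60 (edgeR adjusted p = 0.0043). The call of MYCTH_2307426 was lost without JG207 replicate 2 (edgeR adjusted p = 0.080), without DF1501 replicate 1 (edgeR adjusted p = 0.092) and with only the 4 libraries compared (edgeR adjusted p = 0.051).

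The study called genes with a fold minimum of 2 against JG207 and of 1.5 otherwise, and few members passed it. In DF1102 against JG207 it left 0 members higher and 4 lower, where 10.2% and 11.1% of all genes were higher and lower. For DF1406 and DF1501 against JG207 it left 0 members in either direction, with 7.13% higher and 4.01% lower among all genes of DF1406, and 4.69% and 1.3% of DF1501. In DF1406 against DF1102 there were 6 higher and 0 lower, where the shares of all genes were 7.81% and 4.32%. In DF1501 against DF1102 there were 3 higher and 0 lower, where the shares were 13.1% and 8.24%. Between the Weimberg strains 0 members passed it, with 1.96% of all genes higher and 1.84% lower.

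Between DF1501 and DF1406 edgeR called 0 members in either direction, where 2.53% of all genes were higher and 2.29% lower. An unadjusted edgeR p under 0.05 was reached by 11 of 61 members, and by 1959 of all 8335 tested genes. DESeq2 called 0 members higher and 2 lower, and limma on log2(RPKM + 1) called 1 higher and 0 lower. Without DF1501 replicate 1 edgeR called more members lower, and calls over all genes rose too. The median log2 fold change was -0.08, and 11 members lay above 0. That median was -0.018 with library size alone and -0.019 in limma on log2(RPKM + 1), and -0.13 without DF1406 replicate 1 or DF1501 replicate 2. MYCTH_2296263 (log2 fold change -0.46, edgeR adjusted p = 0.085), MYCTH_2297831 (-0.45, edgeR adjusted p = 0.084) and MYCTH_2295089, a large subunit gene at 256 and 272 RPKM for DF1406 and 213 and 200 for DF1501 (-0.42, edgeR adjusted p = 0.085), were lowest. MYCTH_2298482 (0.18, edgeR adjusted p = 0.451) and MYCTH_2312705 (0.11, edgeR adjusted p = 0.627), both of the large subunit, followed MYCTH_2295039 at the upper end. With a median standard error near 0.11 for a member, differences of this size were at the limit of what 2 libraries a strain can show.

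The cytosolic ribosome was drawn by description in the same way and gave 69 genes, of which 4 encode proteins that bind the ribosome or its parts rather than subunits. It moved in the same direction as the mitochondrial ribosome from JG207 to DF1102, with a larger median shift. In DF1102 against JG207, 65 of 69 were lower and 2 higher, where 29.5% of all genes were lower and 27.8% higher. The median log2 fold change was -1.17, against -0.49 for the members. Without the 4 binding proteins, all 65 were lower. Against DF1102, 53 of 69 were higher in DF1406, where 11.9% of all genes were, with a median of 0.69. For DF1501 it was 57, where 18.2% of all genes were higher, with a median of 0.79. Without either DF1102 library these medians lay between 0.64 and 0.82, with fewer calls in the list and over all genes. When either DF1406 library was left out, the median for DF1406 was 0.65 and 0.71, again with fewer calls in both. The 53 for DF1406 became 35 in limma on log2(RPKM + 1), where 684 of all genes were higher, against 990 where 53 were. Without DF1501 replicates 1 and 2 the median for DF1501 became 1.01 and 0.51. The cytosolic genes took 5.14% and 5.62% of counts in JG207, 2.41% and 2.49% for DF1102, 3.83% and 3.61% for DF1406, and 3.33% and 4.996% for DF1501. Counts in members per 100 cytosolic counts therefore stood at 18.5 and 17.2 for JG207, 29.7 and 28.6 for DF1102, 20.5 and 22.9 for DF1406, and 22.8 and 16.1 for DF1501. Both DF1102 libraries lay above all others in this ratio. The difference between the lists was not tested.

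Single cytosolic genes changed by different amounts. MYCTH_2300549, a large subunit protein gene, had the lowest fold change of the list. It stood at 448 and 508 RPKM for JG207 and at 105 and 108 for DF1102 (log2 fold change -2.17, standard error 0.23, edgeR adjusted p = 7.9e-05). MYCTH_2033977, which encodes a fusion of ubiquitin with a ribosomal protein, was the most abundant, and stood at 2904 and 3313 RPKM for JG207 and 1576 and 1782 for DF1102 (log2 fold change -0.89, edgeR adjusted p = 0.0023). MYCTH_2314011, next in mean RPKM, stood at 1952 and 1998 RPKM for JG207 and 1408 and 1286 for DF1102 (log2 fold change -0.56, edgeR adjusted p = 0.015). The 2 ribosomes are also far apart in level per length. The median cytosolic gene stood at 741 and 830 RPKM for JG207, and the median member at 120 and 128.

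**Figure D4:**
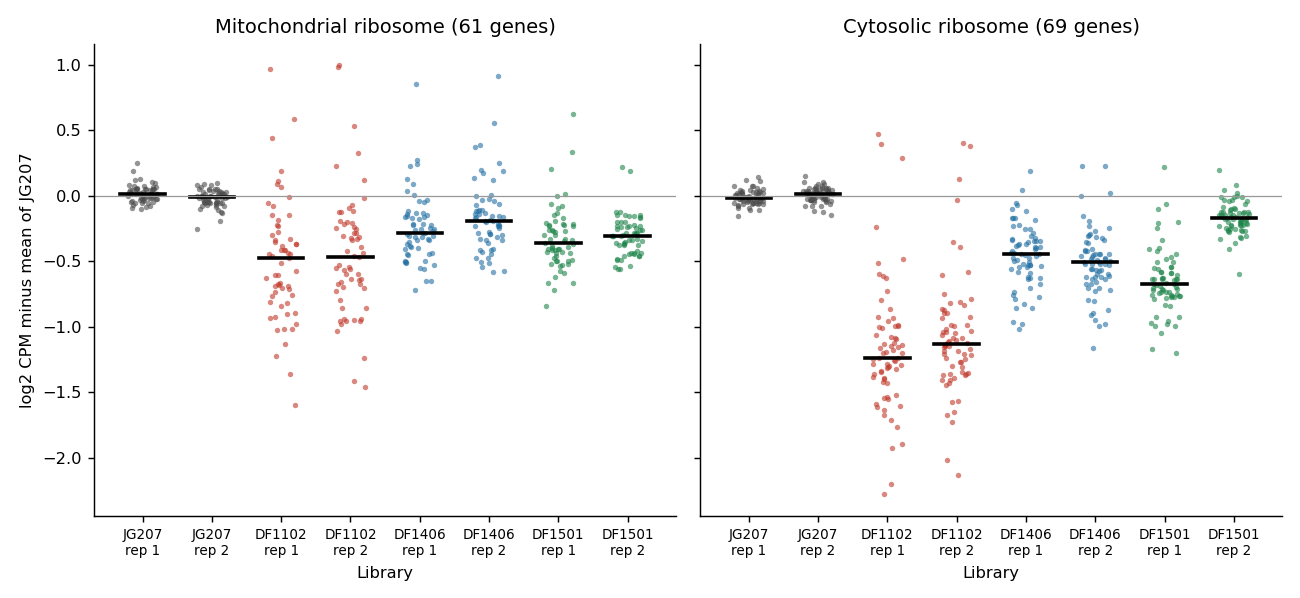
The log2 CPM (counts scaled by library total and TMM factor) of each gene in each library minus its mean in the 2 JG207 libraries, for the 61 members (left) and the 69 cytosolic ribosome genes (right); points are genes and black lines are medians. The medians in DF1102 are -0.47 and -0.47 for members and -1.24 and -1.13 for the cytosolic genes, and in DF1501 they are -0.36 and -0.30 for members but -0.67 and -0.17 for the cytosolic genes.

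The ribosomes parted in the libraries of DF1501. Cytosolic genes stood higher in DF1501 replicate 2 than in replicate 1, by a median of 0.51 on the log2 scale, in 66 of 69 genes, while the members differed by a median of 0.04, with 35 of 61 higher. The median of the members against the JG207 mean was -0.36 and -0.30 in these libraries, and that of the cytosolic genes was -0.67 and -0.17. In the other 3 strains the cytosolic genes of the 2 libraries differed by medians between -0.06 and 0.09. DF1501 against JG207 gave 5 of 69 cytosolic genes lower, or 7.25%, where 9.56% of all genes were lower, with a median of -0.39. Without DF1501 replicate 2 the median was -0.68, and without replicate 1 it was -0.15. DESeq2 gave 20 lower, RLE factors gave 2, library size alone and limma on log2(RPKM + 1) gave 1, and only the 4 libraries compared gave 0. In that order these fits called 1861, 1758, 1478, 1395 and 765 of all genes, against 1773 where 5 cytosolic genes were lower. For the members the median stayed between -0.36 and -0.28 whichever of the 8 libraries was left out. The standard error was also smaller for members, with a median of 0.11 against 0.18, so the calls of the lists in DF1501 are not on the same footing.

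The pathway around the mitochondrial ribosome was described by 23 genes of mitochondrial translation, drawn by description. They are mostly tRNA synthetases, which load amino acids on tRNAs, and initiation, elongation and release factors, and the words also caught MYCTH_2316726, a cochaperone of protein import. In DF1102 against JG207, 15 were lower and 3 higher, where 29.5% of all genes were lower and 27.8% higher. The median log2 fold change of the list was -0.63. Against DF1102, 10 were higher and 1 lower in DF1406, where 11.9% of all genes were higher and 9.9% lower. In DF1501, 10 were higher and 2 lower, where 18.2% of all genes were higher and 16.3% lower. The medians were 0.31 and 0.22. Fewer of the list were higher in DF1406 without any 1 of the DF1102 and DF1406 libraries, and in DF1501 without DF1102 replicate 2. Calls over all genes fell too in those fits. MYCTH_2302257, the methionyl-tRNA synthetase, stood at 35.0 and 41.5 RPKM for JG207, 9.52 and 9.17 for DF1102, 19.4 and 17.9 for DF1406, and 19.0 and 27.8 for DF1501. It had the lowest log2 fold change of the list in DF1102 (-2.03, standard error 0.15, edgeR adjusted p = 1.6e-05), and higher again by 1.06 for DF1406 (edgeR adjusted p = 0.0035) and 1.32 for DF1501 (edgeR adjusted p = 0.00068).

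Both genes described as elongation factor Tu, the GTPase that brings loaded tRNAs to the ribosome, changed in opposite directions. MYCTH_66068, named after its values were seen, stood at 246 and 277 RPKM for JG207, 87.0 and 88.8 for DF1102, 150 and 155 for DF1406, and 150 and 188 for DF1501 (log2 fold change in DF1102 -1.57, standard error 0.13, edgeR adjusted p = 2.2e-05). MYCTH_2303368 stood at 20.8 and 25.8 RPKM for JG207, 92.4 and 87.8 for DF1102, 74.4 and 61.6 for DF1406, and 46.9 and 63.8 for DF1501 (log2 fold change in DF1102 1.95, standard error 0.15, edgeR adjusted p = 1.7e-05). In JG207 the first was the more abundant by far on the per-length scale, and in DF1102 the 2 genes stood at similar levels. How reads were split if their sequences are alike was not tested.

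**Figure D5:**
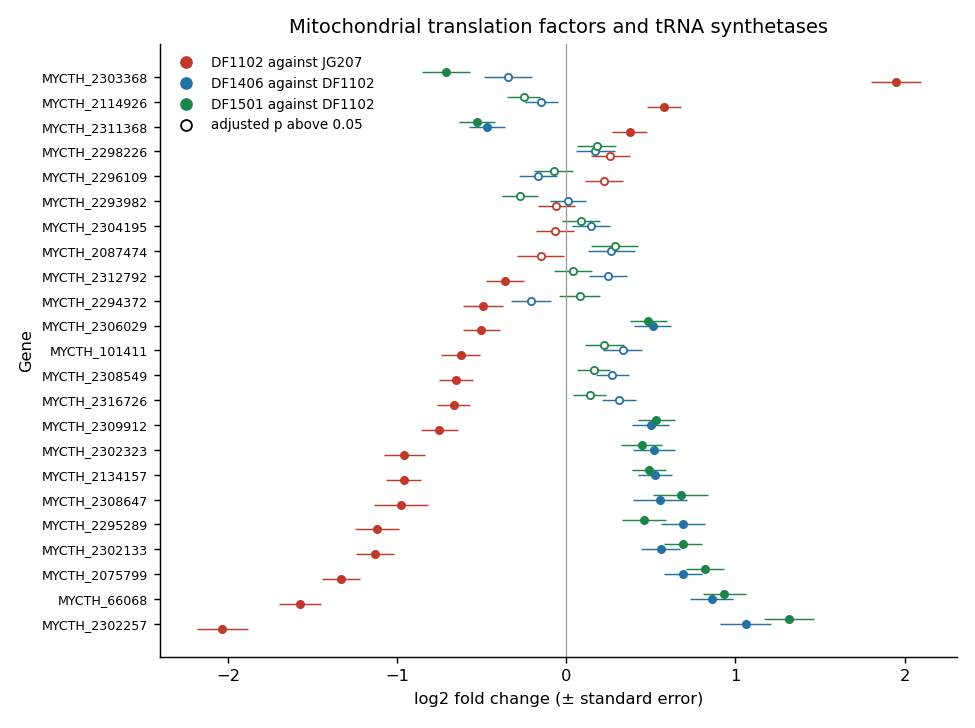
The edgeR log2 fold change of the 23 mitochondrial translation genes (points, with bars of 1 standard error) in DF1102 against JG207 and in DF1406 and DF1501 against DF1102; filled points have an adjusted p of at most 0.05. In DF1102 against JG207 the ends are MYCTH_2302257 at -2.03 and MYCTH_2303368 at 1.95, with 15 genes lower and 3 higher.

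The respiratory chain and ATP synthase, the enzymes to which mitochondrial ribosomes contribute, gave 29 tested genes. Of these, 21 were lower and 3 higher in DF1102 against JG207, where 29.5% of all genes were lower and 27.8% higher. The median log2 fold change of the list was -0.68. A pair of genes, both described as subunit c of the ATP synthase, stood at its ends. MYCTH_112204 fell from 1854 and 2236 RPKM for JG207 to 207 and 240 for DF1102 (log2 fold change -3.19, standard error 0.18, edgeR adjusted p = 4.6e-06). MYCTH_82981 rose from 368 and 282 RPKM to 1061 and 1172 (log2 fold change 1.77, standard error 0.18, edgeR adjusted p = 7.2e-05). Against DF1102, 12 genes of the list were higher and 1 lower in DF1406, where 11.9% of all genes were higher and 9.9% lower. In DF1501, 13 were higher and 3 lower, where 18.2% of all genes were higher and 16.3% lower. The medians were 0.37 and 0.39. Fewer of the list were higher in DF1406 without any 1 of the DF1102 and DF1406 libraries, and in DF1501 without DF1102 replicate 1. Calls over all genes fell too in those fits.

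The level and the length of a member were weakly related at most to its change in DF1102 against JG207. Across the 61 members, Spearman's rho of the log2 fold change was 0.22 with the mean RPKM and 0.02 with the gene length used in the RPKM. These are descriptions across genes of the same 4 libraries, and genes are not independent replicates.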

How the data were processed

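The 8 libraries, 2 a strain, were measured by RNA-seq. The authors cleaned the reads (SOAPnuke), aligned them (TopHat2 2.0.12, under 2 mismatches, genome v2.0) and made counts per gene from uniquely assigned reads (HTSeq 0.13.5). The strand setting is not given in the sources used here, so reads of overlapping genes on opposite strands may not be separated. Counts were tested as deposited. RPKM values were also deposited, made by the authors from those counts with 1 length per gene and the library total, and were used for levels. The counts of JG207 replicate 1 end in 3 rows without a gene ID, in which the values are other than counts of a gene (the deposited column total, the same figure rescaled, and 1 entry with decimals), and these were left out. No column of any library was left unused (0 columns).

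Counts were fitted with R 4.3.3 and edgeR 4.0.16, using TMM factors of 0.954 to 1.05, the default filter (minimum count 10, 8335 genes kept), all 8 libraries and a mean for each strain, by the quasi-likelihood test, with 4 residual and 5.16 prior degrees of freedom. Adjusted p-values are Benjamini-Hochberg over the 8335 genes of a comparison, and calls use an adjusted p of at most 0.05. Standard errors are the absolute log2 fold change over the square root of F. Lists are described by counts and medians, with no test of a list. The scripts were tested on simulated data. Alternatives were DESeq2 1.42.0, RLE factors, library size alone, no filter, only the 4 libraries compared, limma 3.58.1 on log2(RPKM + 1), where a pseudocount of 1 understates changes of low genes, a replicate block, the fold minimum of the study, and leaving out each library. The members and lists were chosen with earlier results of these data known. Named members are the 3 highest and 3 lowest fold changes of each comparison, the 3 highest and 3 lowest mean RPKM, and members that are not structural subunits, and any other is marked as picked with its values in view, except MYCTH_2059227, MYCTH_2090388, MYCTH_2299217, MYCTH_2058620, MYCTH_2300408 and MYCTH_2311295, which come with the neighbours or the group they stand in. Gene IDs of 9087 genes, all 61 members included, matched the RefSeq table, which was used for neighbours alone.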

Additional observations from a re-analysis of the deposited data

How the results depend on the processing

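The median log2 fold change of the members kept its sign in all 6 comparisons under every alternative run, while counts of calls moved. Under the study's fold minimum of 2 against JG207 and 1.5 otherwise, 0 members were higher and 4 lower in DF1102 against JG207, 0 and 0 in DF1406 and in DF1501 against JG207, 6 and 0 in DF1406 against DF1102, and 3 and 0 in DF1501 against DF1102. With library size alone, 16 were lower in DF1501 against JG207, 11 higher in DF1406 against DF1102 and 1 higher in DF1501 against DF1406, and limma on log2(RPKM + 1) gave the same counts, 16, 11 and 1. The medians under these were -0.31 and -0.30 in DF1406 against JG207, 0.20 and 0.20 in DF1406 against DF1102, and -0.018 and -0.019 in DF1501 against DF1406. With library size alone 42.3% of all calls in DF1406 against DF1102 were higher, where the TMM fit gave 54.5%, and 65.2% in DF1501 against DF1406, where it gave 52.5%. With only the 4 libraries compared, 2 were higher in DF1406 against JG207, 0 higher and 3 lower in DF1501 against JG207, and 14 higher in DF1501 against DF1102. For DF1501 against JG207 that fit called 765 of all genes, where the TMM fit of all libraries called 1773. DESeq2 gave 2 higher in DF1406 against JG207 and 2 lower in DF1501 against DF1406. The causes were not tested. No member count or median moved with RLE factors or with no filter on low counts beyond 1.5 times or the spread between libraries.

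With the replicate number as a block, 40 members were lower and 3 higher in DF1102 against JG207, and the single higher call in DF1501 against JG207 was lost, giving 0. The deviations of same-numbered libraries correlated between -0.22 and 0.17 over pairs of strains. With 2 libraries a strain, these values cannot tell whether the numbers do more than name the libraries.

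Leaving out each of the 8 libraries in turn leaves 1 library in an arm, which is then assumed to vary like the others. In DF1102 against JG207 this gave 32 to 43 members lower, 2 to 3 higher and medians from -0.52 to -0.42. In DF1406 against JG207 it gave 4 to 20 lower, 1 to 2 higher and medians from -0.26 to -0.17. In DF1501 against JG207 it gave 5 to 24 lower, 0 to 1 higher and medians from -0.36 to -0.28. Against DF1102, DF1406 had 3 to 25 higher, 0 to 1 lower and medians from 0.23 to 0.32, and DF1501 had 7 to 20 higher, 0 to 4 lower and medians from 0.11 to 0.20. DF1501 against DF1406 had 0 to 4 lower, 0 higher and medians from -0.13 to -0.07. Of the values of named members that had passed the test, 284 passed again and 84 did not across these fits, and 303 passed and 19 did not across the other alternatives. Calls over all genes moved in the fits without a library too, so member counts from them are no trait of the members alone. With 2 libraries a strain, small changes of single members are at the limit of the test.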
